A study of Mus musculus with 4 samples.

Results

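TBX5 binding around Zfp608 was examined on chromosome 18 of the mouse, in forelimb buds of wild-type, outbred ICR embryos at embryonic day 10.5. The region was defined by peak position, as all peaks of the deposited TBX5 list with a summit from 54.7 to 56.3 Mb, and it held 65 of the 11224 peaks in the list. It was chosen from the list itself for its many peaks, so its density, spacing, signal and reproducibility are described here and no test was applied to them. The study has 4 libraries of the same embryonic tissue, 2 enriched with a polyclonal antibody to TBX5 and 2 of input, the sheared chromatin before enrichment. All 4 share genotype, strain and stage, and the labels do not say whether the replicates came from separate pools of embryos. The authors deposited 1 set of peaks for the TBX5 group, with no value for a single replicate or for input, so no spread between replicates can be attached to any value, and read depth is unknown. Whole limb buds were used, so no peak can be placed in a cell type of the bud.

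TBX5 is a transcription factor of the T-box family that is made in the forelimb bud and not in the hindlimb bud. It is required for the forelimb to form, acts upstream of the outgrowth signal Fgf10, and in humans is the gene mutated in Holt-Oram syndrome, which affects the upper limbs and the heart. In chromatin immunoprecipitation with sequencing (ChIP-seq), DNA bound by such a factor is enriched, sequenced and called as peaks. Developmental regulator genes often lie beside long stretches of DNA without other genes, in which distant enhancers, DNA elements that regulate a gene from afar, are found. Zfp608 encodes a zinc finger protein that was described in developing thymocytes as an inhibitor of the recombination genes Rag1 and Rag2.

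Positions are given as deposited, counted from 1. The labels name mm10 (GRCm38), but 29 of the 517 summits on chromosome 7 were numbered past the end of the last RefSeq gene of that chromosome on GRCm38.p6. The last of them, at 152.4 Mb, is past the end of the chromosome in that build, so the list cannot be wholly on it. The rule that defined the region takes the list to be on the earlier build mm9, where it places Zfp608 near 55.05 Mb with few genes above it. No mm9 annotation was used here, and no peak was assigned to an exon, intron or UTR. On GRCm38.p6, Zfp608 also lies inside the interval with the same numbers. It is the 1 protein-coding gene among the 19 annotated genes of that interval, the others being 11 lncRNA genes, 6 pseudogenes and 1 snoRNA gene. Its nearest protein-coding neighbours in the gene table were Csnk1g3, which encodes a casein kinase, on the lower side and Gramd3, which encodes a GRAM domain protein, on the upper side.

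The region held 40.6 peaks per Mb over its 1.6 Mb, against 4.98 per Mb on the rest of chromosome 18 and 4.39 per Mb in the rest of the list, a ratio of 9.25 to the latter. Flanking stretches of the same length held 24 peaks below the region and 15 above it. Within the region, the 1 Mb window from 55 to 56 Mb held 54 peaks, the most of the 2635 windows on a 1 Mb grid. The median window held 3 peaks, 569 windows held none, and 11 windows held 30 or more. The next densest windows, from 52 Mb on chromosome 6 and from 165 Mb on chromosome 1, held 43 and 41 peaks. A window from 74 Mb on chromosome 2 also held 41, and it overlaps the stretch on that chromosome described next. In the comparisons with these places below, the 1 Mb window from 55 Mb is the part of the region that has the same length. This window was placed by the grid, whereas the stretch on chromosome 2 was placed to hold the most peaks.

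The first place of this window depended on where the grid fell. When 1 Mb stretches could start at any summit, the densest in the region, from 54.989 Mb, held 56 peaks, while a stretch on chromosome 2 that started at 74.456 Mb held 62. After overlapping or touching intervals had been joined, these stretches held 48 and 58 sites. The Zfp608 region was therefore the densest on the fixed grid of 1 Mb windows and not the densest 1 Mb of the list.

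**Figure D1:**
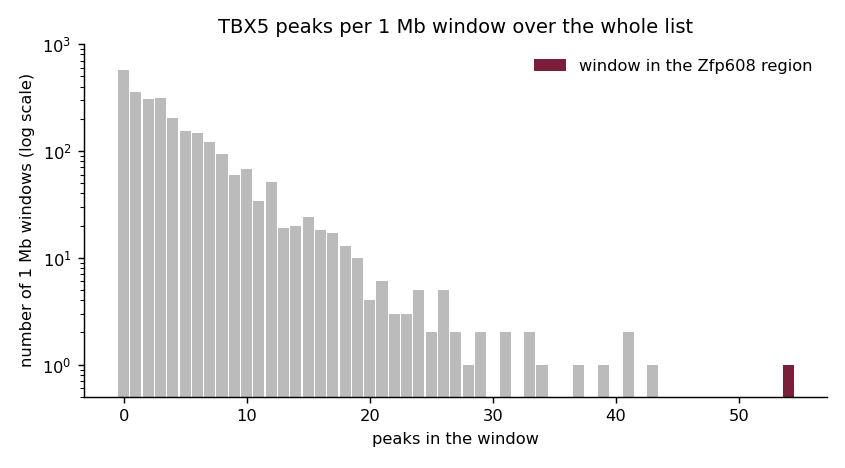
Number of 1 Mb windows (vertical axis, log scale) by the number of TBX5 peaks they hold (horizontal axis), over 2635 windows on a fixed grid. The window in the Zfp608 region, in dark red, holds 54 peaks, and the next holds 43.

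Peaks were found along the whole region. Each of its 16 bins of 100 kb held at least 1 peak, whereas 24.5% of the 26262 such bins in the list did. Counts differed between bins, with 15 peaks from 55.1 to 55.2 Mb, 9 from 55.9 to 56.0 Mb and 7 from 55.6 to 55.7 Mb. The count of 15 was the highest of any 100 kb bin in the list and was shared by 1 other bin, so that 2 bins in all reached it. By contrast, 1 peak each lay in the bins from 55.8, 56.0 and 56.1 Mb. Below the position given for Zfp608 there were 7 peaks (20 per Mb), and from there to the upper bound there were 58 (46.4 per Mb). The upper part holds most of the dense window for which the region was chosen, so this difference was partly set by the choice. The position is a single point, so peaks inside the gene were not told apart from peaks above it.

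**Figure D2:**
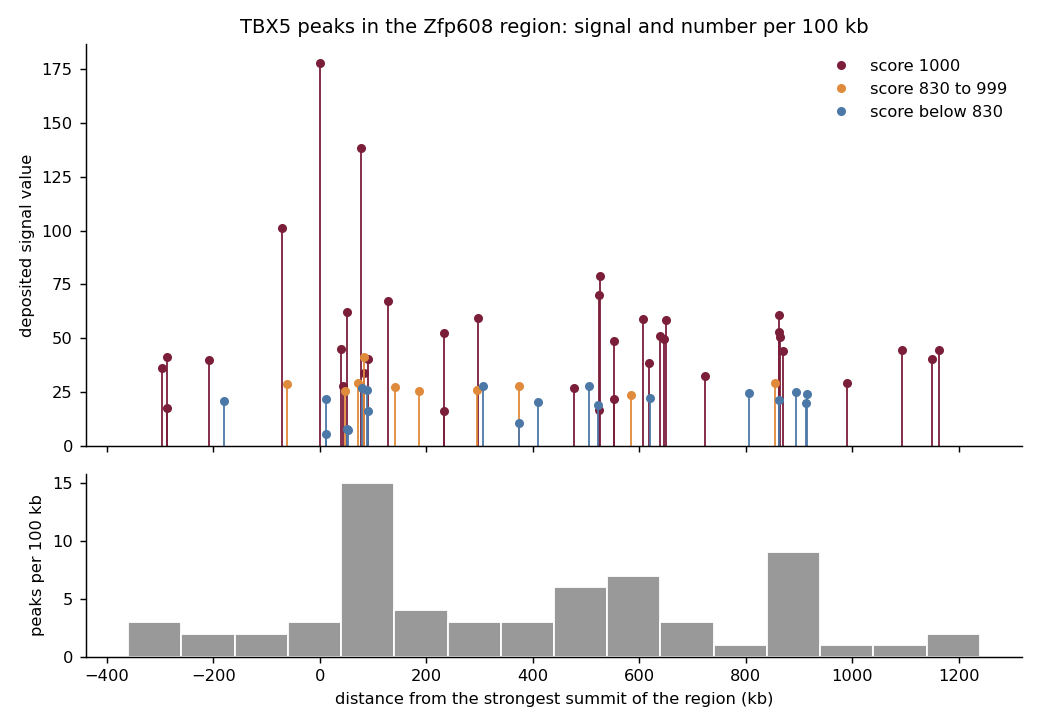
Signal value of each of the 65 peaks (upper panel) and the number of peaks per 100 kb (lower panel) against the distance in kb from the strongest summit of the region, with colours for the score of the irreproducible discovery rate (IDR). The 3 strongest peaks stand at -71.2, 0 and 78.01 kb, and the tallest bar, of 15 peaks, lies to the right of the strongest summit.

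The strength of a peak is given by its signal value, on a scale that the sources used here do not give. Reproducibility is given by the IDR score, which rises to 1000 for peaks that rank both high and alike in the replicates. The score thus depends on strength as well as on agreement. A score of 830 stands for an IDR of 0.01 and one of 540, the lowest in the list, for an IDR of 0.05. The strongest peak of the region lay at chr18:55060127-55060442, with its summit at 55060284 and a signal of 177.8. It ranked 31st among the 11224 peaks and had 6.54 times the median signal of the list. The nearest other summit was 11793 bp away, so the strongest peak had no neighbour within 10000 bp. Its summit lies close to the position of 55.05 Mb that the rule gives for Zfp608 on mm9, and whether it falls inside the gene was not tested.

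The second strongest peak, at chr18:55138089-55138485, had a signal of 138.1 and ranked 99th in the list. It lay 78.01 kb above the strongest summit, inside the largest group of peaks of the region. The third, at chr18:54988933-54989165, had a signal of 101.2, ranked 272nd and lay at -71.2 kb, on the lower side of the strongest summit. No other member had a signal above 100.

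The next 7 peaks by signal had summits between 55.1 and 56.0 Mb. At chr18:55587204-55587386 and chr18:55584849-55584995 were 2 strong peaks with signals of 78.9 and 70.3, about 527 and 525 kb above the strongest summit. A weaker summit with a signal of 16.7 lay between them. A peak at chr18:55188312-55188492 had a signal of 67.5, and one at chr18:55111639-55111858 a signal of 62.3. The remaining 3 were at chr18:55923040-55923348 (signal 60.8), chr18:55357235-55357449 (59.3) and chr18:55666686-55666842 (58.8). All 10 had the highest score of 1000, and together they spanned 934.2 kb. Above 55 Mb lay 9 of the 10, as did 58 of all 65 members (89.2%). The 10 strongest peaks made up 34.5% of the summed signal of the 65 peaks.

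The peaks of the region were many, with a median signal close to that of the rest of the list and somewhat higher quartiles. Their median signal was 29.1 (quartiles 23.7 and 48.7, range 5.63 to 177.8), whereas that of the rest of the list was 27.1 (quartiles 20.3 and 39.9). In the highest decile of signal of the list were 7 of the 65 members (10.8%), beside 10% of all peaks, and 39 (60%) lay above the median of the list, beside 50% of all peaks. Of the 100 strongest peaks of the list 2 lay in the region, and of the 1000 strongest 6 did, while the region held 0.579% of all peaks. Over 1 Mb each, the median was 27.9 in the window from 55 Mb, 30.2 and 35.2 in the windows on chromosomes 6 and 1, and 30.5 in the stretch on chromosome 2. Their strongest peaks had signals of 177.8 in the Zfp608 region, 198.2 on chromosome 2, 121.5 on chromosome 1 and 81.0 on chromosome 6.

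The median score of the members was 1000, against 940 in the rest of the list. A score of 1000 was reached by 36 of the 65 (55.4%), beside 45.4% of all peaks, and a score of at least 830 by 46 (70.8%), beside 60% of all peaks. Over 1 Mb each, the share at 830 or above was 66.7% in the window from 55 Mb, 62.8% in the window on chromosome 6, 80.5% in that on chromosome 1 and 71.0% in the stretch on chromosome 2. The share in the window from 55 Mb thus lay within the range of the other dense places. The q-value of the peak caller was above 0.05 for 3 members (4.62%), beside 6.07% of all peaks.

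Among the members, stronger peaks had higher scores (Spearman's rho 0.72 over 65 peaks of 1 list, with a ceiling of 1000 on the score). The same relation was seen in the rest of the list, with a rho of 0.80. It is partly set by definition, since the score depends on ranks of strength. The 36 peaks with a score of 1000 had a median signal of 45.0 and the 19 with a score below 830 a median of 21.2. The 10 peaks between these classes had a median of 27.5. The lowest score, 565, belonged to a peak with a signal of 18.9 and its summit at 55582516, which lay 2406 bp from the peak with a signal of 70.3. Scores of 568 and 595 were given to 2 summits 202 bp apart, at 55072279 and 55072077, with signals of 5.63 and 21.9. The former was the weakest member, with a q-value of 0.751. A score of 583 was given to the summit at 55469251 (signal 20.2), and one of 598 to that at 55679430 (signal 22.4), 199 bp from a stronger summit with a signal of 38.7 and a score of 1000. Of these 5 peaks, 4 had another summit within 10000 bp, beside 47 of all 65 members (72.3%) and 42.7% of all peaks. The one at 55469251 did not.

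**Figure D3:**
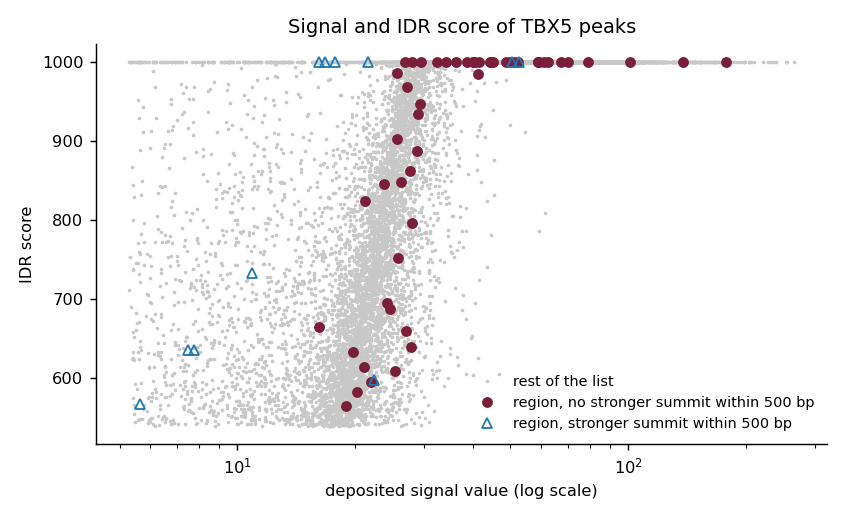
IDR score (vertical axis) against signal value (horizontal axis, log scale) for the 65 peaks of the region, with the rest of the list in grey. Triangles mark the 11 members with a stronger summit within 500 bp. Of these, 4 had the score of 1000 at a lower signal than any other member of the region with that score. Each of the 4 stood beside a stronger summit with the same score.

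A stronger summit within 500 bp was present for 11 members (16.9%), beside 10.1% of all peaks. Their median signal was 16.7, against 33.3 for the other 54, a difference partly set by definition. A score of 1000 was given to 6 of the 11 and to 30 of the other 54, beside 45.4% of all peaks. Each of the 6 had a stronger neighbour with the same score. Whether the score of a weaker summit is independent of that of its neighbour was not tested. Of these 6 weaker summits, 4 had signals below 26.8, the lowest signal at which any of the other 54 members reached that score. The lowest was 16.2. All 3 members with a q-value above 0.05 were among the 11.

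Summits in the region lay close together. The median distance between neighbouring summits was 9.85 kb (quartiles 1.58 and 32.1 kb), against 64.6 kb (quartiles 10.4 and 233.0 kb) in the rest of the list. Of the 64 distances, 11 were 500 bp or less, 6 were over 500 and up to 2000 bp, 16 were over 2000 and up to 10000 bp, 20 were over 10000 and up to 50000 bp, and 11 were longer. Distances over 50000 bp made up 17.2% of those in the region and 54.5% of those in the rest of the list. Over equal lengths of 1 Mb, the median distance was 6.40 kb in the window from 55 Mb, 13.4 kb in the window on chromosome 6, 9.03 kb in that on chromosome 1 and 5.22 kb in the stretch on chromosome 2.

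**Figure D4:**
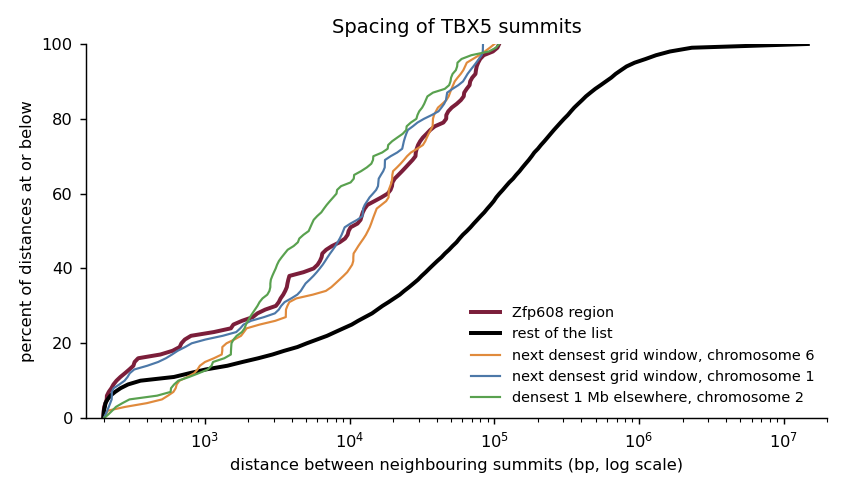
Percent of distances between neighbouring summits (vertical axis) that are at or below a given length (horizontal axis, bp, log scale), in the Zfp608 region, the rest of the list and 3 other dense places. The curve of the region lies to the left of that of the rest of the list, with medians of 9.85 and 64.6 kb, except at the shortest distances, where both run together. The curve of the region crosses those of all 3 other dense places, which are 1 Mb long where the region is 1.6 Mb.

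Another summit lay within 10000 bp of 47 members (72.3%), beside 42.7% of all peaks. Over 1 Mb each, the share was 77.8% in the window from 55 Mb, 62.8% and 68.3% in the windows on chromosomes 6 and 1, and 90.3% in the stretch on chromosome 2. Joined into runs of successive summits at most 10000 bp apart, the 65 peaks formed 32 groups, of which 18 were single peaks, 7 were pairs, 3 had 3 members and 1 had 4. The other 3 groups held 6, 6 and 8 peaks. In the whole list 63 of 8435 groups had at least 5 peaks, and 2 were larger than the largest of the region.

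The group of 8 ran from 55131900 to 55150809, a span of 18.9 kb. Its signals ranged from 16.2 to 138.1 with a median of 31.7, 3 of its peaks had a score of 1000, and no 2 of its summits lay within 500 bp of each other. All 8 peaks remained separate when overlapping or touching intervals were joined. A group of 6 lay below it, from 55100787 to 55112281, with signals from 7.49 to 62.3 and a score of 1000 for 3 peaks. Together these 2 groups held 14 of the 15 peaks in the bin from 55.1 to 55.2 Mb. The other group of 6, from 55914988 to 55929832, had signals from 21.2 to 60.8, a median of 47.4 against 26.9 in the first group of 6, and a score of 1000 for 4 peaks.

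Peaks in groups of at least 5 had a median signal of 31.7 (20 peaks), those in groups of 2 to 4 a median of 28.0 (27 peaks) and single peaks a median of 28.6 (18 peaks). Of the 7 members in the highest decile of signal, 2, 3 and 2 lay in these classes. Strong peaks were therefore found in groups and alone.

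The longest stretches without a summit were 108.0 kb, between 54881070 and 54989045, 103.3 kb, between 56050694 and 56153968, and 82.1 kb, between 55783985 and 55866110. The first ended at the third strongest peak of the region. The longest gap of the rest of the chromosome was 2089 kb.

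Part of the count came from summits whose listed intervals overlapped. Neighbouring summits within 500 bp formed 11 pairs, which involved 20 members (30.8%), beside 20.1% of all peaks. They were 199 to 328 bp apart, and the listed intervals overlapped or touched in 9 of the 11. The signal of the weaker summit was between 0.125 and 0.964 times that of the stronger, with a median of 0.429. Joining overlapping or touching intervals left 56 sites, or 35.0 per Mb, against 3.96 per Mb in the rest of the list.

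In 3 of the 11 pairs the summits were nearly equal, with a ratio of at least 0.8. A run of 3 summits at 55923249, 55923460 and 55923723 gave 2 of these pairs, with signals of 60.8, 52.7 and 50.6 and a score of 1000 each. The other run of 3, at 55111743, 55112071 and 55112281, had signals of 62.3, 7.77 and 7.49 and scores of 1000, 636 and 636. Both runs spanned a like stretch, but in the first all summits were strong, while in the second a strong summit stood beside a pair of weak ones.

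The most frequent width in the list, 416 bp, was found for 48 members, and 17 (26.2%) had another width, beside 15.7% of all peaks. These 17 were 104 to 397 bp wide, had a median signal of 59.3 against 26.5 for the others, and 16 of them had a score of 1000. Covered bases amounted to 22138 bp, or 1.38% of the region, against 0.161% of the span of the rest of the list.

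The bounds of the region did not pass through a group of peaks. The nearest members inside were 64.1 and 73.2 kb above the lower bound, with signals of 36.4 and 17.8, and 77.1 and 90.5 kb below the upper bound, with signals of 44.7 and 40.3. The nearest peaks outside were 47.4 and 57.5 kb below the lower bound (signals 34.0 and 35.4) and 108.4 and 123.8 kb above the upper bound (signals 24.5 and 31.3). At the lower bound the signals just outside thus lay within the range of those just inside. At the upper bound both signals just outside were lower than both just inside.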

How the data were processed

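The data were 1 peak list without a header, in the 10 columns of the narrowPeak layout, for 2 TBX5 ChIP libraries. Samples were grouped by their titles. The authors deposited a score per peak from the irreproducible discovery rate (IDR) at a limit of 0.05, a signal value per peak from their peak caller, and the −log10 q-value of each peak. The deposited p-value column holds -1 in every row and was not used. Aligner, peak caller, filters and pooling are not given in the sources used here; the submitters' processing notes name FastQC and mm10. Which peaks pass, and their strength, depend on those steps, so signal was compared only within the list.

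Summits were the start plus the summit offset, and were counted in windows on a grid from 0 on each chromosome. Values were computed in Python 3.11.15 with NumPy 2.4.6, pandas 2.3.3 and SciPy 1.17.1, and plots were drawn with matplotlib 3.10.9. The counting and joining steps were checked on simulated data. Density in the rest of the list used the span from first to last summit of each of 20 chromosomes. Gene names came from a RefSeq table of GRCm38.p6, of which no coordinates are printed.

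Members, rules and alternatives were chosen with earlier results of these data known. Peaks named were the 10 strongest, the 5 of lowest score, the 3 longest gaps, groups of at least 5 peaks, and those nearest to the bounds; others were named as partners in close pairs. The stretch on chromosome 2, the gap and group classes and the widths were added after the values were seen.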

Additional observations from a re-analysis of the deposited data

How the results depend on the processing

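Of 51 alternative values for the 7 results, 39 stayed within 1.5 times the count, at the same rank or inside the 95% binomial interval of the main value, which covers counting error over peaks only. The number of peaks was 39 in the upper 50% of signal, in place of 65, and 46 to 62 when other filters or joins were used. The density ratio was 12.3 for the 1 Mb window alone, in place of 9.25, and 8.18 to 11.1 otherwise. The window kept first place under all 6 filters and joins, but ranked 2 on 1 Mb windows that start 0.5 Mb later (41 peaks, against 58 elsewhere), 2 on 2 Mb windows (78 against 80) and 3 on 0.5 Mb windows (28 against at most 31). The median distance was 20062 bp with summits within 1000 bp joined, in place of 9849 bp. Keeping only peaks with an IDR up to 0.01 raised the median signal from 29.1 to 40.8. Score rises with signal over the whole list, so that filter favours stronger peaks anywhere. The median signal was 33.3 with overlapping or touching intervals joined and 37.6 with summits within 1000 bp joined. Joining kept the strongest summit, and the median of the rest of the list was not computed after it. The share with another summit within 10000 bp, 72.3% in the main setting, was 58.9% with overlapping or touching intervals joined. It was 54.0% with summits within 1000 bp joined and 57.4% without peaks near a stronger summit. Within 2000 bp it was 46.2%, and within 50000 bp 95.4%. The share over all peaks was not computed under these settings, so these values cannot be set against the rest of the list. The median score lay between 993 and 1000 throughout.

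No paired analysis was possible because each peak has 1 value for both replicates together, which also kept either replicate from being left out. Without read depth, the number of sites missed for lack of reads cannot be given.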
